A study of Mus musculus with 10 samples.

Results

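The genes described here make cholesterol, sense it, move it out of lysosomes or export it from the cell. They are 31 genes listed by symbol and role, and all match rows of the deposited gene tables, which list 47643 genes in each library. The list uses no measured value as a criterion, but it was drawn up with earlier results of these data known. All 31 genes passed the filter on low counts, out of 16208 genes tested. By role, 19 genes encode enzymes of the route from acetyl-CoA to cholesterol, 5 encode the transcription factor SREBP2 and proteins that retain, escort or follow it, 2 encode the lysosomal sterol exporters, and 5 encode the liver X receptors (LXRs) and sterol export genes that LXRs are known to induce.

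Cells build cholesterol from acetyl-CoA through mevalonate, farnesyl diphosphate, squalene and lanosterol. When sterols in the endoplasmic reticulum are low, SCAP carries SREBP2 to the Golgi, where it is cut, and the released fragment enters the nucleus and turns on nearly every gene of the route. When sterols are plentiful, INSIG proteins hold SCAP and SREBP2 back, while oxysterols switch on the LXRs, which induce the exporters ABCA1 and ABCG1 and the ubiquitin ligase MYLIP, which lowers lipoprotein receptors at the cell surface. In lymphocytes the synthesis arm is known to go up with growth and division and the export arm to go down.

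RNA was sequenced from innate lymphoid cells (ILCs), lymphocytes without rearranged antigen receptors, taken by cell sorting from skin of adult mice of the B6 strain. The labels give 4 groups: epidermal ILCs (3 libraries), dermal ILCs that carry CCR6 (2 libraries), dermal ILCs that carry Sca1 (2 libraries) and subcutaneous ILCs (3 libraries). No label names a treatment, a genotype other than the strain, an age beyond adult or a sex, and for replicate 2 of both dermal sorts only the title names the sorting marker. Nothing in the labels says that replicates came from separate mice, so every p-value here reflects scatter among the libraries at hand, and that scatter may be technical. The total count ran from 11627222 to 18118544 per library. All 7 ILC marker genes examined had counts in every library, with a summed level of 6057 to 6588 library-size-scaled counts (CPM) in epidermal libraries and 9590 to 12670 CPM in the others. Markers of other cells were present too: 10 keratinocyte markers summed to 2980, 8128 and 8173 CPM in the epidermal libraries, 1598 to 2326 CPM in the dermal libraries and 109.1 to 242.5 CPM in the subcutaneous libraries. In the opposite direction, 10 markers of macrophages and dendritic cells summed to 400.0 to 486 CPM in epidermal, 1121 to 2245 CPM in dermal and 5610 to 10260 CPM in subcutaneous libraries. Fibroblast markers (6 genes) were at 0.139 to 16.9 CPM in epidermal and 1218 to 4290 CPM in the other libraries, and markers of endothelial cells, mast cells and adipocytes were likewise lowest in the epidermal ones. Simple epithelium markers (4 genes) were at 1303 to 3962 CPM in subcutaneous and 24.95 to 72.0 CPM in the other libraries. Sebocyte markers (6 genes) were highest in dermal Sca1+ libraries, at 222.9 and 275 CPM, against 3.52 to 105.3 CPM elsewhere. T cell markers (6 genes) were at 272 to 404 CPM in epidermal and 622 and 454 CPM in dermal CCR6+ libraries. They were at 263 and 137 CPM in dermal Sca1+ and 131 to 314 CPM in subcutaneous libraries. In such bulk libraries, fewer cells that express a gene and less RNA of that gene per cell cannot be told apart.

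Promoter sequence is shown for 6 genes because they stand for the groups compared below: 3 synthesis enzymes and Insig1, which were higher in epidermal than in subcutaneous ILCs, and Abca1 and Mylip, which were lower. RefSeq promoters on build GRCm38.p6 were matched for 25 of the 31 genes, and none was printed for Fdps, Stard4, Sqle, Npc1, Fdft1 or Abcg1. Each stretch is written 5′ to 3′ on the gene's strand, ends at or before the base upstream of the transcript start, and has in capitals every match to CCAAT (the box bound by NF-Y, a known partner of SREBP2), to TCACNCCAC (a form of the sterol regulatory element) or to CACGTG (the E-box), on either strand. The stretches are Hmgcs1 at chr13:119690151-119690350 on the plus strand, Mvd at chr8:122443423-122443622 on the minus strand, Pmvk at chr3:89454341-89454540 on the plus strand, Insig1 at chr5:28071212-28071362 on the plus strand, Abca1 at chr4:53159896-53160095 on the minus strand and Mylip at chr13:45389542-45389741 on the plus strand.
Hmgcs1: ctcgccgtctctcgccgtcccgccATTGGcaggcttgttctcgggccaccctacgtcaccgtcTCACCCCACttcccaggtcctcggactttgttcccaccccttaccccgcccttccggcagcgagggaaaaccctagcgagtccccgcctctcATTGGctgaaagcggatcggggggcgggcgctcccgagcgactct
Mvd: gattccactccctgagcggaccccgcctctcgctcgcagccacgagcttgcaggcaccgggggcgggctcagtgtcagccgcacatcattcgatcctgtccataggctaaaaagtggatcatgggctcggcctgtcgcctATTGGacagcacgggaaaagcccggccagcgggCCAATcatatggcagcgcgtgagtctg
Pmvk: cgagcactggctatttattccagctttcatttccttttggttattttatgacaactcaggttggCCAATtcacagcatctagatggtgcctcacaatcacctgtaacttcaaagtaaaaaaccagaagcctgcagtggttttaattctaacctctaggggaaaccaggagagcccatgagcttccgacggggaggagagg
Insig1: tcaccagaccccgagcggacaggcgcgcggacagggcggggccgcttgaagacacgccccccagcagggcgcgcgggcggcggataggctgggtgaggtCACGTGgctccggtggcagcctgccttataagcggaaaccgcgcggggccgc
Abca1: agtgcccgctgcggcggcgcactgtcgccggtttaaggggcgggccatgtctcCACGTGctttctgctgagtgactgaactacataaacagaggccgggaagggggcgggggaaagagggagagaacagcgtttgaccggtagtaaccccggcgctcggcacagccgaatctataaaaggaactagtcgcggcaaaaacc
Mylip: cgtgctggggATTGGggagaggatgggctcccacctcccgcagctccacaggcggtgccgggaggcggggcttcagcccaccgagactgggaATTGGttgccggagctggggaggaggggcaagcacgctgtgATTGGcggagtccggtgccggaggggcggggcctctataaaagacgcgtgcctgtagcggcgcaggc

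The letters CCAAT, read on both strands of the 250 bases upstream of any RefSeq start of a gene, occurred in 15 of the 16 synthesis genes with a promoter (93.8%), all but Acat2. Over the 11572 tested genes with a promoter the share was 39.8%. Among the LXR and export genes with a promoter, 1 of 4 held a match, and that gene was Mylip. TCACNCCAC occurred in the Hmgcs1 promoter, 137 bases upstream of the RefSeq start, against 1.23% of tested genes. No other gene of the set with a promoter held it, and the genes without one were not searched. CACGTG occurred in Hsd17b7, Dhcr7, Sc5d, Insig1, Scap and Abca1, that is, on both sides of the expression pattern, against 9.45% of tested genes. A direct repeat of AGGTCA with 4 bases between its copies, a strict form of the LXR element searched the same way, was in none of the set's promoters, in 0 of the 11572 tested genes and in 4 of all 27025 genes with a promoter. A TCACNCCAC match can share bases with a CACGTG match, and none printed here does. Insig1 also holds CCAAT, 216 bases upstream and outside the stretch printed. Genes with several starts have more chances of a match, and matches describe sequence only.

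By group mean, epidermal ILCs had the highest levels of most cholesterol synthesis genes and subcutaneous ILCs the lowest, though few differences between epidermal and dermal ILCs were called. A gene is called here when edgeR's quasi-likelihood test, fitted on all genes and adjusted by Benjamini-Hochberg, gave an adjusted p under 0.05. Between epidermal and subcutaneous ILCs, 12 of the 31 genes were called higher in the epidermis, where 6.87% of all tested genes were, and 3 were called lower, where 13.3% were. Of the 19 synthesis genes 11 were higher and 0 lower, with a median log2 fold change of 1.43 against -0.02 over all tested genes. By mean level, 13 of the 19 synthesis genes were highest in epidermal ILCs and 14 were lowest in subcutaneous ILCs. The same shares over all genes were not computed. Of the 19, 1 was called higher in epidermal than in dermal CCR6+ ILCs, where 0.987% of all tested genes were. Against dermal Sca1+ ILCs 2 were called higher and 1 lower, where 2.75% and 8.66% of all tested genes were. Abca1, Mylip and Npc2 were the 3 genes called lower. Both epidermal libraries with the highest keratinocyte level (replicates 2 and 3) were also left out, a setting chosen after the marker levels were seen. It leaves 1 epidermal library, so calls under it rest on the spread of the other groups. The 12 genes called higher then had log2 fold changes from 0.71 (Pmvk) to 2.48 (Mvd). Abca1 was at -3.44, Mylip at -1.09 and Npc2 at -1.02.

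**Figure D1:**
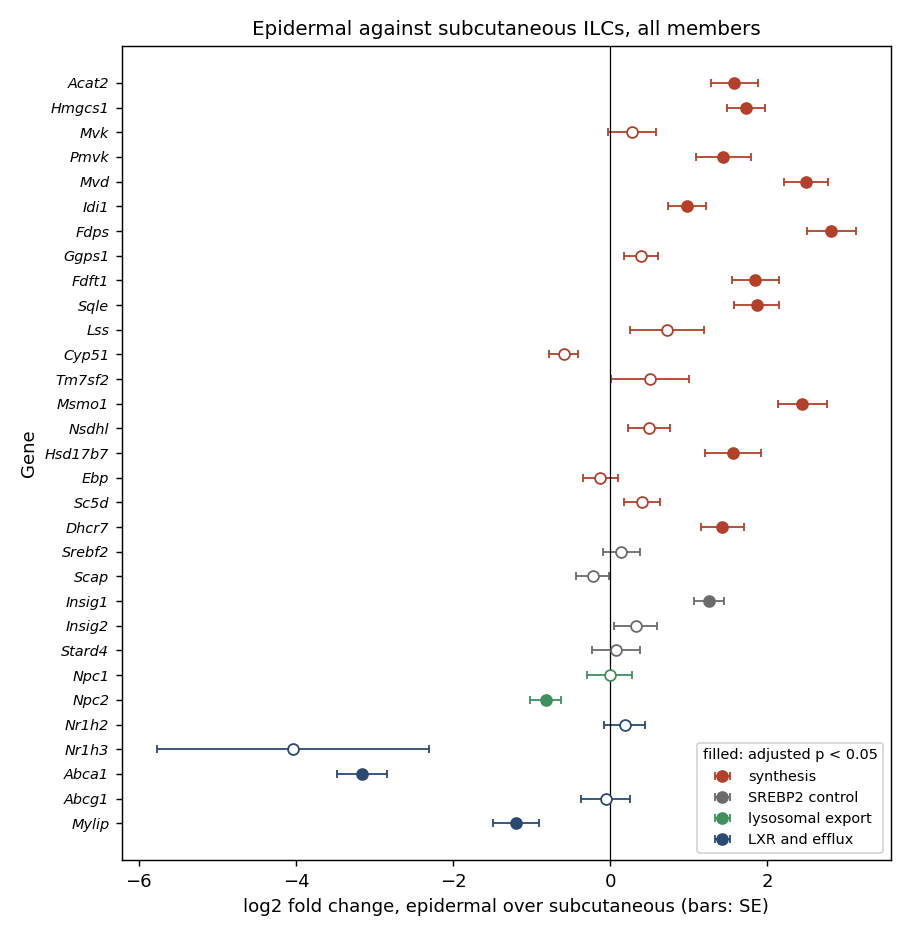
Log2 fold change of all 31 genes between epidermal (3 libraries) and subcutaneous (3 libraries) ILCs, with bars of 1 SE computed from the edgeR test statistic, coloured by role and filled where the adjusted p was under 0.05. The 11 called synthesis genes lie to the right of 0, from 0.98 for Idi1 to 2.82 for Fdps, while Abca1 lies at -3.16. The wide bar of Nr1h3 goes with 0 counts in 2 of the 3 epidermal libraries.

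Acat2 and Hmgcs1, the enzymes before mevalonate measured here, were lowest in subcutaneous ILCs. Acat2, which joins acetyl-CoA units, stood at 45.4, 54.2 and 61.9 CPM in epidermal, 42.3 and 77.96 CPM in dermal CCR6+, 65.98 and 50.4 CPM in dermal Sca1+ and 22.2, 18.4 and 13.3 CPM in subcutaneous libraries. Hmgcs1, which makes HMG-CoA and whose promoter holds the TCACNCCAC match above, stood at 127, 185 and 185 CPM in epidermal, 76.4 and 131 CPM in dermal CCR6+, 118 and 129 CPM in dermal Sca1+ and 50.5, 49.1 and 50.03 CPM in subcutaneous libraries. All 3 subcutaneous libraries were below every other library for both genes. Epidermal levels exceeded subcutaneous ones by a log2 fold change of 1.58 ± 0.30 for Acat2 (edgeR adjusted p = 0.00441) and 1.73 ± 0.24 for Hmgcs1 (edgeR adjusted p = 0.000672). The Acat2 call was lost without epidermal replicates 2 and 3 (log2 fold change 1.32, edgeR adjusted p = 0.104), and that of Hmgcs1 was not (1.32, adjusted p = 0.0293). Of the Acat2 transcript's 50-base words, 39.1% also occur in Acat3, its near copy, which received 38 counts in all libraries together against 7095 for Acat2. A further partner, Tcp1, shares 11.2% of them and is abundant, with 35433 counts, at 277 ± 27.98 CPM in epidermal and 199 ± 31.1 CPM in subcutaneous ILCs (SD, n = 3 each), so reads in that stretch are uncertain.

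Mevalonate is phosphorylated by Mvk and Pmvk and decarboxylated by Mvd. Mvk ranged from 12.3 to 40.5 CPM and was called by edgeR in no comparison, although limma on TPM called it higher in epidermal than in dermal Sca1+ ILCs. Pmvk levels were 21.3, 41.8 and 41.5 CPM in epidermal, 16.4 and 22.3 CPM in dermal CCR6+, 16.3 and 12.4 CPM in dermal Sca1+ and 11.98, 14.7 and 11.7 CPM in subcutaneous libraries, so that epidermal replicate 1 lay just below the higher dermal CCR6+ library. Its excess over subcutaneous ILCs was 1.44 ± 0.35 on the log2 scale (edgeR adjusted p = 0.0157), a call lost without epidermal replicate 2 or 3 or subcutaneous replicate 1 or 3 (edgeR adjusted p from 0.0526 to 0.0644), and without both of those epidermal replicates (0.71, adjusted p = 0.487). Mvd stood at 57.4, 58.9 and 55.3 CPM in epidermal, 33.7 and 46.6 CPM in dermal CCR6+, 36.9 and 21.7 CPM in dermal Sca1+ and 9.51, 10.02 and 10.9 CPM in subcutaneous libraries. The epidermal and subcutaneous libraries each spanned a narrow range for Mvd and lay far apart, with a log2 fold change of 2.50 ± 0.28 (edgeR adjusted p = 0.000156) that kept its size without epidermal replicates 2 and 3 (2.48, adjusted p = 0.00562).

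Idi1, Fdps and Ggps1 turn isopentenyl diphosphate into the farnesyl and geranylgeranyl chains used for sterols and for protein prenylation. Idi1 was measured at 85.2, 79.8 and 120.1 CPM in epidermal, 90.8 and 135 CPM in dermal CCR6+, 79.8 and 89.6 CPM in dermal Sca1+ and 40.9, 47.2 and 56.5 CPM in subcutaneous libraries. Epidermal and dermal Idi1 overlapped, and the epidermal excess over subcutaneous ILCs was 0.98 ± 0.24 (log2, edgeR adjusted p = 0.0159), which was lost without epidermal replicate 3 or subcutaneous replicate 1 or 2 (edgeR adjusted p from 0.0532 to 0.0724) and without epidermal replicates 2 and 3 (0.80, adjusted p = 0.185). Fdps, which makes farnesyl diphosphate, had the highest level per transcript length of the 19 enzymes in the epidermal and both dermal groups, at 385 ± 58.9 TPM, a level scaled for length (SD, n = 3), in epidermal and 49.1 ± 12.2 TPM (SD, n = 3) in subcutaneous ILCs. In CPM its libraries read 213, 344 and 347 CPM in epidermal, 181 and 251 CPM in dermal CCR6+, 110.4 and 141 CPM in dermal Sca1+ and 28.1, 44.5 and 55.7 CPM in subcutaneous libraries. The groups fell in steps from epidermal to subcutaneous, with epidermal replicate 1 inside the dermal CCR6+ range, and the difference between the ends was 2.82 ± 0.31 on the log2 scale (edgeR adjusted p = 0.000137), the largest among the synthesis genes. It was 2.29 without epidermal replicates 2 and 3 (edgeR adjusted p = 0.00501). Ggps1, which extends the chain for geranylgeranylation, was called in no comparison and ranged from 26.6 to 40.6 CPM. Of the Fdps words 26.2% and of the Idi1 words 25.3% occur in other genes, among them the pseudogene-like Gm3571 for Fdps (192 counts in all) and Gm13502 for Idi1 (107 counts in all), few beside the 27613 and 12895 counts of the genes themselves.

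Fdft1 and Sqle commit farnesyl units to sterols by making and oxidising squalene, and Lss closes the ring. Fdft1 was found at 62.4, 128 and 106 CPM in epidermal, 27.5 and 31.9 CPM in dermal CCR6+, 41.2 and 47.7 CPM in dermal Sca1+ and 28.6, 20.7 and 32.8 CPM in subcutaneous libraries. Every epidermal library exceeded every other library for Fdft1, by 1.85 ± 0.30 against subcutaneous ILCs (log2, edgeR adjusted p = 0.00159) and by 1.73 ± 0.34 against dermal CCR6+ ILCs (edgeR adjusted p = 0.0135). Without epidermal replicates 2 and 3 these were 1.17 (adjusted p = 0.0972) and 1.04 (adjusted p = 0.301), and the second was also lost without either dermal CCR6+ library (edgeR adjusted p from 0.065 to 0.103). Fdft1 shares 774 exonic bases with Ctsb on the opposite strand, and the library method does not mark strand, so reads there cannot be told apart; Ctsb itself ran the other way, at 324 ± 41.9 CPM (SD, n = 3) in epidermal and 1715 ± 446 CPM (SD, n = 3) in subcutaneous ILCs. Sqle stood at 116, 159 and 128 CPM in epidermal, 62.0 and 64.4 CPM in dermal CCR6+, 65.8 and 49.4 CPM in dermal Sca1+ and 43.7, 22.2 and 44.8 CPM in subcutaneous libraries. Epidermal libraries were again above all others for Sqle, with a log2 fold change of 1.86 ± 0.29 against subcutaneous (edgeR adjusted p = 0.00121) that remained called without epidermal replicates 2 and 3 (1.63, adjusted p = 0.037). Lss was called nowhere and its libraries scattered within groups, from 16.1 to 50.6 CPM in the dermal CCR6+ sort alone.

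After lanosterol, Cyp51 and Msmo1 strip methyl groups, Nsdhl and Hsd17b7 complete their removal, and Tm7sf2, Ebp, Sc5d and Dhcr7 move or reduce double bonds. Msmo1 levels were 111, 206 and 218 CPM in epidermal, 95.4 and 116 CPM in dermal CCR6+, 93.95 and 165 CPM in dermal Sca1+ and 27.5, 34.6 and 35.9 CPM in subcutaneous libraries, and its epidermal level exceeded the subcutaneous one by 2.45 ± 0.31 (log2, edgeR adjusted p = 0.000349; 1.75 with adjusted p = 0.013 without epidermal replicates 2 and 3). Hsd17b7 levels were 46.5, 33.99 and 43.2 CPM in epidermal, 41.4 and 28.98 CPM in dermal CCR6+, 16.7 and 33.5 CPM in dermal Sca1+ and 12.7, 18.6 and 10.5 CPM in subcutaneous libraries, and Dhcr7, the last reductase of this branch, stood at 34.2, 51.6 and 46.03 CPM in epidermal, 27.8 and 30.7 CPM in dermal CCR6+, 21.99 and 31.6 CPM in dermal Sca1+ and 16.6, 15.2 and 17.1 CPM in subcutaneous libraries. Every epidermal library exceeded every subcutaneous one for both genes, by 1.57 ± 0.35 for Hsd17b7 (edgeR adjusted p = 0.011) and 1.43 ± 0.27 for Dhcr7 (edgeR adjusted p = 0.00419). Neither call held without epidermal replicates 2 and 3, at 1.73 for Hsd17b7 (edgeR adjusted p = 0.0708) and 1.05 for Dhcr7 (adjusted p = 0.171). Tm7sf2, Nsdhl, Ebp and Sc5d were called in no comparison. Ebp reached 70.4 to 122.6 CPM and Sc5d 74.4 to 171 CPM, so these uncalled genes were not at the limit of detection, whereas Tm7sf2 was low throughout at 3.95 to 8.13 CPM.

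Cyp51, the lanosterol demethylase, did not follow the synthesis genes that were called higher in epidermal than in subcutaneous ILCs. It read 160.3, 172 and 209 CPM in epidermal, 233 and 329.5 CPM in dermal CCR6+, 372 and 319 CPM in dermal Sca1+ and 277, 289.5 and 249 CPM in subcutaneous libraries. The 3 epidermal libraries were the lowest of all 10, and Cyp51 was called lower in epidermal than in dermal Sca1+ ILCs, by -0.94 ± 0.21 on the log2 scale (edgeR adjusted p = 0.0157). That call was lost without epidermal replicate 2 or either dermal Sca1+ library (edgeR adjusted p from 0.0508 to 0.122) and without epidermal replicates 2 and 3 (-1.12, adjusted p = 0.0677). Against subcutaneous ILCs the value was -0.59 ± 0.19 and was not called (edgeR adjusted p = 0.0512), although DESeq2, relative log expression size factors in edgeR and a stricter filter each gave a call. Set beside Msmo1, which acts a little later in the route, the TPM ratio of Cyp51 to Msmo1 was 0.606, 0.413 and 0.42 in epidermal, 1.05 and 1.17 in dermal CCR6+, 1.74 and 0.809 in dermal Sca1+ and 4.40, 3.41 and 2.98 in subcutaneous libraries. The subcutaneous libraries therefore held more Cyp51 than Msmo1 transcript and the epidermal libraries less. Set against Lss, which acts just before Cyp51 and was called nowhere, epidermal and subcutaneous libraries overlapped. The TPM ratio of Cyp51 to Lss was 3.96, 6.5 and 5.33 in epidermal and 6.17, 20.3 and 11.3 in subcutaneous libraries. It was 16.0 and 7.23 in dermal CCR6+ and 13.2 and 5.07 in dermal Sca1+ libraries. Only 2.77% of the words of Cyp51 occur in other genes.

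**Figure D2:**
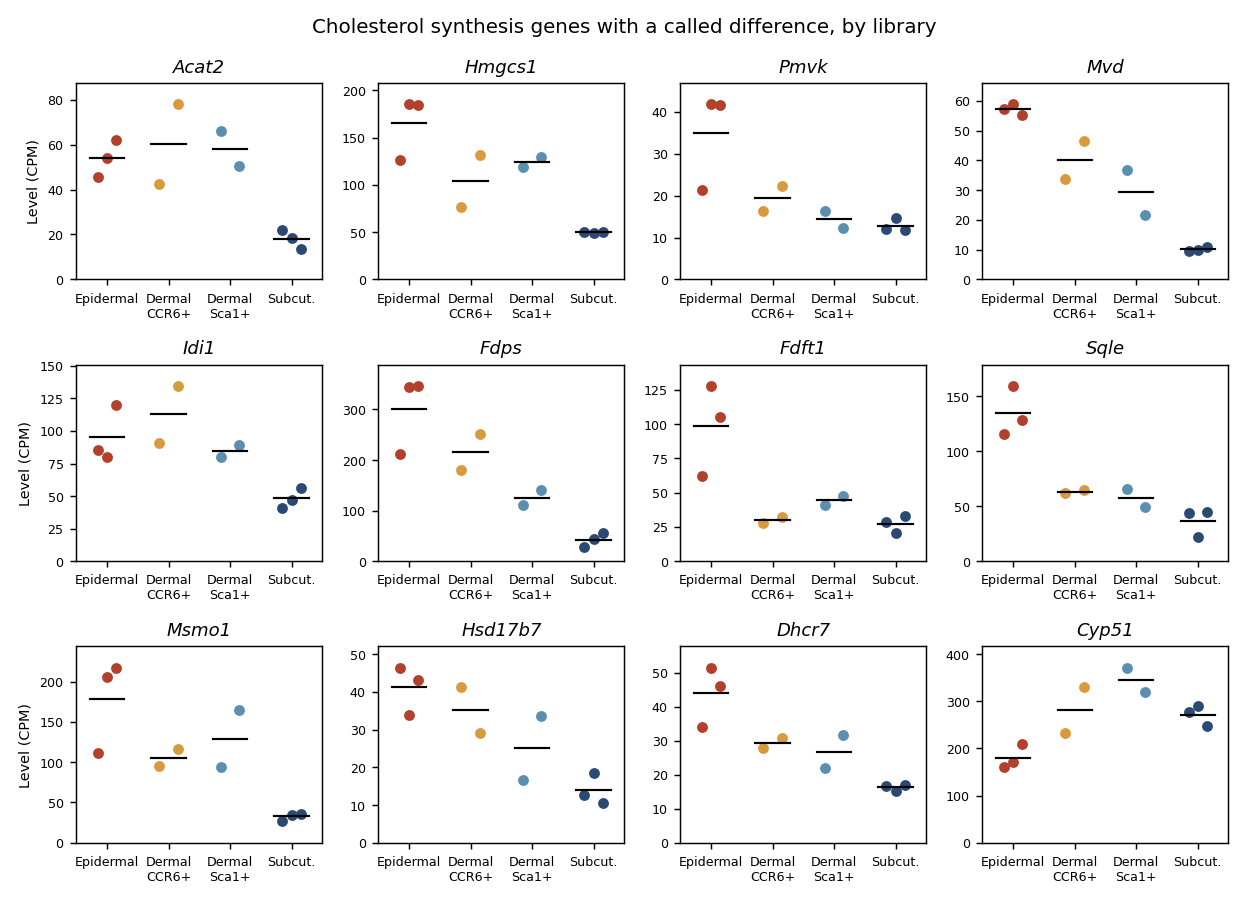
Level in CPM of the 12 synthesis genes called in at least 1 comparison, with a point for each library and a line at the group mean (3 epidermal, 2 dermal CCR6+, 2 dermal Sca1+ and 3 subcutaneous libraries). In 11 panels the epidermal points all lie above the subcutaneous points, as 17.2% of all tested genes do. In the panel of Cyp51 the epidermal points lie below, at 160.3 to 209 against 249 to 289.5 CPM, as 22.6% of all tested genes do. The genes are shown because they were called, which favours such separation.

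The order of abundance within the route differed between layers. In epidermal ILCs Fdps led by TPM, followed by Msmo1 at 140.3 ± 29.8 TPM (SD, n = 3) and Sc5d at 94.0 ± 15.9 TPM (SD, n = 3). In subcutaneous ILCs Cyp51 led at 85.3 ± 10.8 TPM (SD, n = 3), followed by Ebp at 76.1 ± 11.7 TPM and Sc5d at 63.2 ± 9.26 TPM, while Msmo1 was at 23.9 ± 1.88 TPM (SD, n = 3 each). Summed over the 19 enzymes, the level was 1145, 1246 and 1393 TPM in epidermal, 803 and 1073 TPM in dermal CCR6+, 729 and 863 TPM in dermal Sca1+ and 477, 482 and 469.7 TPM in subcutaneous libraries. Epidermal replicate 1, with the lowest keratinocyte level of its group, had the lowest sum of its group on either scale. In TPM it was above all dermal and subcutaneous libraries, but in CPM it was not: the CPM sums were 1412, 1871 and 1987 in epidermal, 1268 and 1687 in dermal CCR6+, 1316 and 1421 in dermal Sca1+ and 832.6 to 923 in subcutaneous libraries. The 10 genes of a cell cycle list moved the same way, at 526.5 to 724 CPM summed in epidermal and 238 to 419 CPM in subcutaneous libraries, with 406 to 684 CPM in dermal ones. Epidermal replicate 1, the library kept when replicates 2 and 3 were left out, had the highest cell cycle sum of all and 2980 CPM of keratinocyte markers, above every dermal and subcutaneous library. The part of keratinocyte RNA and of dividing cells in the synthesis result was not tested.

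By summed TPM of the 19 enzymes dermal ILCs lay between the ends, but not every gene followed that order. By mean level, 4 of the 19 were highest in dermal CCR6+ and 2 in dermal Sca1+ ILCs, and 4 were lowest in dermal Sca1+ ILCs. Against subcutaneous ILCs, the dermal CCR6+ group had 7 genes called higher (3.75% of all tested genes) and 1 lower (3.71%), and the dermal Sca1+ group had 5 higher (1.21%) and 0 lower (0.993%; 1 at an unadjusted p under 0.05 by edgeR, 0 called by DESeq2 or limma). Among synthesis genes these were 6 and 5 higher, with median log2 fold changes of 0.71 and 0.70 over the 19 genes against -0.08 and -0.03 over all tested genes. Both comparisons use the same 3 subcutaneous libraries as the epidermal one, so they are not independent of it. Fdps was higher than in subcutaneous ILCs by 2.34 ± 0.32 in the dermal CCR6+ sort (edgeR adjusted p = 0.00193) and 1.56 ± 0.32 in the dermal Sca1+ sort (edgeR adjusted p = 0.0338). Mvd was higher by 1.99 ± 0.29 (edgeR adjusted p = 0.00301) and 1.53 ± 0.29 (edgeR adjusted p = 0.0254) in the same order. Leaving out any 1 library ended neither CCR6+ call. In the Sca1+ sort the Fdps call was lost without epidermal replicate 3, either Sca1+ library or subcutaneous replicate 1 or 2 (edgeR adjusted p from 0.0553 to 0.185), and the Mvd call without Sca1+ replicate 1 or any subcutaneous library (edgeR adjusted p from 0.0724 to 0.223) or with only the compared groups in the fit.

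Msmo1, Acat2 and Hmgcs1 were also above their subcutaneous levels in dermal ILCs. Msmo1 exceeded subcutaneous ILCs by 1.69 ± 0.33 in CCR6+ (edgeR adjusted p = 0.0115) and 1.98 ± 0.33 in Sca1+ ILCs (edgeR adjusted p = 0.0125). Acat2 did so by 1.74 ± 0.33 (edgeR adjusted p = 0.0102) and 1.69 ± 0.33 (edgeR adjusted p = 0.0267), and Hmgcs1 by 1.06 ± 0.26 (edgeR adjusted p = 0.0348) and 1.31 ± 0.26 (edgeR adjusted p = 0.0301). Idi1 was called in the CCR6+ sort, at 1.23 ± 0.26 (edgeR adjusted p = 0.0187), and read 0.81 ± 0.26 in the Sca1+ sort without a call (edgeR adjusted p = 0.162); the sorts themselves differed by 0.41 ± 0.29 without a call (edgeR adjusted p = 0.659). With 2 libraries per dermal sort these calls leaned on single libraries. The number of genes called higher in the Sca1+ sort was 0 without subcutaneous replicate 1, 1 without subcutaneous replicate 2 or without either Sca1+ library, 2 without subcutaneous replicate 3 and 3 without epidermal replicate 3. In the CCR6+ sort it was 3 without CCR6+ replicate 2, the library with the higher level of each of the 7 genes: Acat2, Hmgcs1, Idi1 and Msmo1 were then lost (edgeR adjusted p from 0.0871 to 0.37). The Hmgcs1 call there also ended without epidermal replicate 3 or any Sca1+ or subcutaneous library, or with only the compared groups in the fit, and that of Idi1 without subcutaneous replicate 1 or 2.

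Between the 2 dermal sorts no gene of the set was called in either direction, where 0.296% of all tested genes were higher in CCR6+ and 0.346% lower. At an unadjusted p under 0.05, edgeR gave 4 genes, 2 in each direction. DESeq2 called Insig1 higher in CCR6+, and limma on TPM called none. Epidermal against dermal Sca1+ ILCs gave 2 genes higher (2.75% of all tested genes) and 3 lower (8.66%), and epidermal against dermal CCR6+ ILCs 1 higher (0.987%) and 2 lower (5.19%). The genes higher than in dermal Sca1+ ILCs were Fdps, by 1.26 ± 0.33 (edgeR adjusted p = 0.0355), and Sqle, by 1.22 ± 0.32 (edgeR adjusted p = 0.0351). Both were lost without epidermal replicate 2 or 3 or either Sca1+ library, and Fdps also without subcutaneous replicate 2 (edgeR adjusted p from 0.0544 to 0.212 over these). Without epidermal replicates 2 and 3 together the values were 0.75 for Fdps (adjusted p = 0.414) and 0.999 for Sqle (adjusted p = 0.295).

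The transcript of SREBP2 itself was not called in any comparison. Srebf2, which encodes SREBP2, stood at 300.2, 221 and 231 CPM in epidermal, 297 and 340.1 CPM in dermal CCR6+, 219 and 278 CPM in dermal Sca1+ and 255, 158 and 268 CPM in subcutaneous libraries, and Scap, its escort, at 89.7, 65.8 and 87.9 CPM in epidermal, 90.4 and 72.1 CPM in dermal CCR6+, 86.6 and 83.8 CPM in dermal Sca1+ and 104, 77.1 and 104 CPM in subcutaneous libraries. Both genes overlapped between epidermal and subcutaneous libraries, with log2 fold changes of 0.14 ± 0.23 for Srebf2 (edgeR adjusted p = 0.737) and -0.22 ± 0.21 for Scap (edgeR adjusted p = 0.52) between these ends, and Scap was uncalled throughout. Both dermal CCR6+ libraries were above every dermal Sca1+ and subcutaneous library for Srebf2, by 0.36 ± 0.28 (edgeR adjusted p = 0.712) and 0.49 ± 0.26 (edgeR adjusted p = 0.288). SREBP2 is controlled by cutting of its protein, which RNA levels do not report. Stard4, a cytosolic sterol carrier and known SREBP2 target, was also uncalled everywhere and ranged from 29.1 to 72.7 CPM.

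The 2 INSIG genes differed from each other. Insig1, the INSIG gene that SREBP2 itself induces, read 107, 90.4 and 119.5 CPM in epidermal, 171 and 181 CPM in dermal CCR6+, 83.4 and 74.9 CPM in dermal Sca1+ and 38.2, 45.4 and 49.1 CPM in subcutaneous libraries. Its dermal CCR6+ libraries were the highest of all and its subcutaneous libraries the lowest, with no overlap between any neighbouring groups. Insig1 was higher than in subcutaneous ILCs by 1.26 ± 0.19 in epidermal (edgeR adjusted p = 0.00102) and 1.99 ± 0.21 in dermal CCR6+ ILCs (edgeR adjusted p = 0.000417), and both calls held with any 1 library left out, the first also without epidermal replicates 2 and 3 (1.26, adjusted p = 0.0138). The difference of 1.15 ± 0.23 between the dermal sorts was not called by edgeR (adjusted p = 0.0625), nor was that of -0.74 ± 0.20 between epidermal and dermal CCR6+ ILCs (edgeR adjusted p = 0.0634), although DESeq2 and a stricter filter in edgeR gave both calls.

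Insig2, which is not known as an SREBP2 target, read 53.2, 36.99 and 57.2 CPM in epidermal, 27.2 and 19.3 CPM in dermal CCR6+, 31.3 and 39.8 CPM in dermal Sca1+ and 42.6, 44.9 and 30.3 CPM in subcutaneous libraries. Its 2 dermal CCR6+ libraries were the lowest of all 10, where Insig1 was highest, though edgeR called no Insig2 difference (epidermal against dermal CCR6+ 1.08 ± 0.32, adjusted p = 0.0803). DESeq2 called that one. The TPM ratio of Insig1 to Insig2 was 4.05 and 5.66 in dermal CCR6+ libraries, 1.36 to 1.59 in epidermal, 1.53 and 1.54 in dermal Sca1+ and 0.687 to 1.29 in subcutaneous libraries. The ratio thus set the CCR6+ libraries apart from the other 8, a description with no test.

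**Figure D3:**
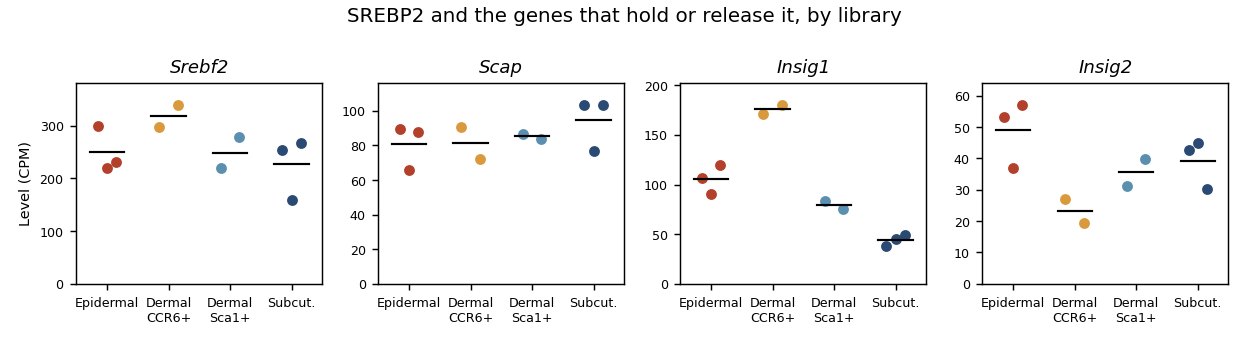
Level in CPM of Srebf2, Scap, Insig1 and Insig2, with a point for each library and a line at the group mean. Srebf2 and Scap overlap between epidermal and subcutaneous libraries, Insig1 runs from 38.2 CPM in a subcutaneous library to 180.5 CPM in a dermal CCR6+ library, and the CCR6+ libraries are the lowest for Insig2.

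Of the lysosomal exporters, Npc2, the soluble protein that hands cholesterol to NPC1, was lower in epidermal ILCs. Npc2 read 116, 138 and 141 CPM in epidermal, 196 and 207 CPM in dermal CCR6+, 192 and 177 CPM in dermal Sca1+ and 174, 261 and 260.0 CPM in subcutaneous libraries, with all epidermal libraries below all others. The difference from subcutaneous ILCs was -0.82 ± 0.20 (log2, edgeR adjusted p = 0.0144), and it was lost without subcutaneous replicate 2 or 3 (edgeR adjusted p from 0.0517 to 0.0538) and without epidermal replicates 2 and 3 (-1.02, adjusted p = 0.0769). Npc1, the membrane exporter, was called in no comparison and ranged from 23.5 to 56.6 CPM. Npc2 is also abundant in macrophages, whose markers were highest in the subcutaneous libraries, and their part in this difference was not tested.

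Abca1, the LXR-induced pump that loads cholesterol onto lipid-poor apolipoprotein, showed the largest called difference of the set, opposite to the enzymes. It read 8.19, 12.9 and 8.62 CPM in epidermal, 26.3 and 26.1 CPM in dermal CCR6+, 56.96 and 45.6 CPM in dermal Sca1+ and 88.4, 117 and 58.8 CPM in subcutaneous libraries. The epidermal, dermal CCR6+, dermal Sca1+ and subcutaneous libraries followed each other without overlap. Epidermal levels were lower by -3.16 ± 0.32 than subcutaneous (log2, edgeR adjusted p = 8.69e-05), -2.38 ± 0.33 than dermal Sca1+ (edgeR adjusted p = 0.00106) and -1.41 ± 0.33 than dermal CCR6+ (edgeR adjusted p = 0.0291), and dermal CCR6+ levels were below subcutaneous by -1.75 ± 0.35 (edgeR adjusted p = 0.0132). The calls against subcutaneous and dermal Sca1+ ILCs held under every setting tried, including without epidermal replicates 2 and 3 (-3.44 with adjusted p = 0.00314, and -2.65 with adjusted p = 0.0147). Both calls that involve the CCR6+ sort were lost without either CCR6+ library, and that against epidermal ILCs also without epidermal replicate 1 or 3 (edgeR adjusted p from 0.0664 to 0.112 over these). These same calls were lost with limma on log2(TPM + 1), and the epidermal one also with only the compared groups in the fit. Without epidermal replicates 2 and 3 the epidermal against CCR6+ value was -1.71 (edgeR adjusted p = 0.108).

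Abcg1, the pump that loads cholesterol onto mature lipoprotein particles, gave no such pattern. It read 40.5, 54.5 and 42.1 CPM in epidermal, 46.5 and 33.8 CPM in dermal CCR6+, 58.2 and 28.3 CPM in dermal Sca1+ and 47.2, 57.7 and 37.98 CPM in subcutaneous libraries, overlapping in all groups, and was called in no comparison (-0.06 ± 0.31 between epidermal and subcutaneous ILCs, edgeR adjusted p = 0.928). Both pumps are known LXR targets; the difference between their changes was not tested.

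Mylip peaked in another group. Mylip, the LXR-induced ligase that marks lipoprotein receptors for breakdown, read 19.6, 14.6 and 19.7 CPM in epidermal, 54.4 and 30.9 CPM in dermal CCR6+, 91.5 and 81.7 CPM in dermal Sca1+ and 53.02, 38.95 and 31.7 CPM in subcutaneous libraries. The dermal Sca1+ libraries were the highest and the epidermal ones the lowest, without overlap with the remaining libraries. Epidermal levels were lower than dermal Sca1+ by -2.27 ± 0.32 (log2, edgeR adjusted p = 0.00117), a call that held with any 1 library left out and without epidermal replicates 2 and 3 (-2.15, adjusted p = 0.0401). They were lower by -1.20 ± 0.29 than subcutaneous (edgeR adjusted p = 0.0155), which was lost without epidermal replicate 2 or subcutaneous replicate 1 (edgeR adjusted p from 0.0538 to 0.0581), with limma on log2(TPM + 1), and without epidermal replicates 2 and 3 (-1.09, edgeR adjusted p = 0.208). The value of -1.25 ± 0.32 against dermal CCR6+ ILCs (edgeR adjusted p = 0.0451) was lost without any of the epidermal libraries, CCR6+ replicate 1, either Sca1+ library or subcutaneous replicate 2 or 3 (edgeR adjusted p from 0.0513 to 0.352), with limma on log2(TPM + 1) and with only the compared groups in the fit, and without epidermal replicates 2 and 3 it was -1.15 (adjusted p = 0.336).

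The receptors known to drive Abca1, Abcg1 and Mylip differed in abundance. Nr1h2, which encodes the widely expressed LXR beta, read 76.6, 71.3 and 72.2 CPM in epidermal, 94.3 and 108 CPM in dermal CCR6+, 75.4 and 53.6 CPM in dermal Sca1+ and 73.6, 41.04 and 78.9 CPM in subcutaneous libraries and was called in no comparison. Nr1h3, which encodes LXR alpha and is abundant in macrophages, gave 17, 0 and 0 counts in the epidermal libraries, 7 and 0 in dermal CCR6+, 60 and 21 in dermal Sca1+ and 71, 75 and 72 in the subcutaneous libraries. In CPM these were 0.922, 0 and 0 CPM in epidermal, 0.449 and 0 CPM in dermal CCR6+, 3.81 and 1.81 CPM in dermal Sca1+ and 4.75, 5.22 and 5.71 CPM in subcutaneous libraries. Every subcutaneous library exceeded every other one, but edgeR did not call the difference from epidermal ILCs (adjusted p = 0.13). It was called by DESeq2, by limma on TPM, by edgeR with no filter beyond 1 count and without epidermal replicate 1. Over the 5 LXR and export genes, 0 were called higher and 2 lower in epidermal than in subcutaneous ILCs, where 6.87% and 13.3% of all tested genes were. The median log2 fold change was -1.20 against -0.02 over all tested genes. With 5 genes that median is the value of Mylip alone, and the uncalled, low-count Nr1h3 lies below it. Abca1, Nr1h3 and the summed macrophage markers given above were all highest in subcutaneous libraries. In the dermal libraries the marker sum overlapped between the sorts, at 1127 and 1308 CPM in CCR6+ and 1121 and 2245 CPM in Sca1+ libraries. Both genes were higher in each Sca1+ library than in either CCR6+ one. Taken singly, 5 of the 10 markers were too. The median log2 fold change of the 10 markers, CCR6+ against Sca1+, was -1.19, with 1 positive and 0 called. Fibroblast and endothelial markers were also far lower in epidermal than in other libraries. The part of RNA from any of these cells in the values was not tested.

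**Figure D4:**
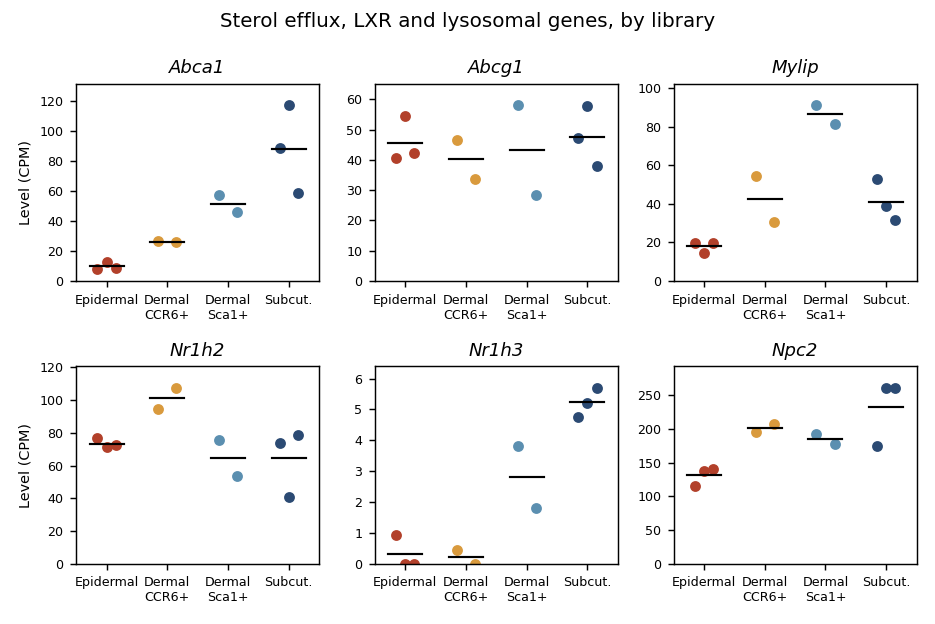
Level in CPM of the 5 LXR and export genes and of Npc2, with a point for each library and a line at the group mean. Abca1 steps up from 8.19 to 12.9 CPM in epidermal to 58.8 to 117 CPM in subcutaneous libraries, Mylip peaks in dermal Sca1+ libraries at 81.7 and 91.5 CPM, and Abcg1 overlaps in all groups.

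Abca1 and Mylip lay opposite to the called enzymes between epidermal and subcutaneous ILCs, while Abcg1 and Nr1h2 were not called. The sum over the 5 LXR and export genes depended on the scale: in TPM it was 76.2 to 102 in epidermal and 78.1 to 115.5 in subcutaneous libraries, which overlap, and in CPM 142.6 to 153 and 213 to 267, which do not. The summed TPM of the 19 enzymes divided by the TPM of Abca1 was 971, 860 and 1340 in epidermal, 269 and 351 in dermal CCR6+, 115 and 158 in dermal Sca1+ and 43.4, 38.4 and 76.2 in subcutaneous libraries. No library of a group overlapped another group in this ratio. That separation was largely set by the choice of Abca1, whose CPM already followed the groups without overlap. Abca1 sets most of its range, since the enzyme sum differed less between groups than Abca1 did.

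**Figure D5:**
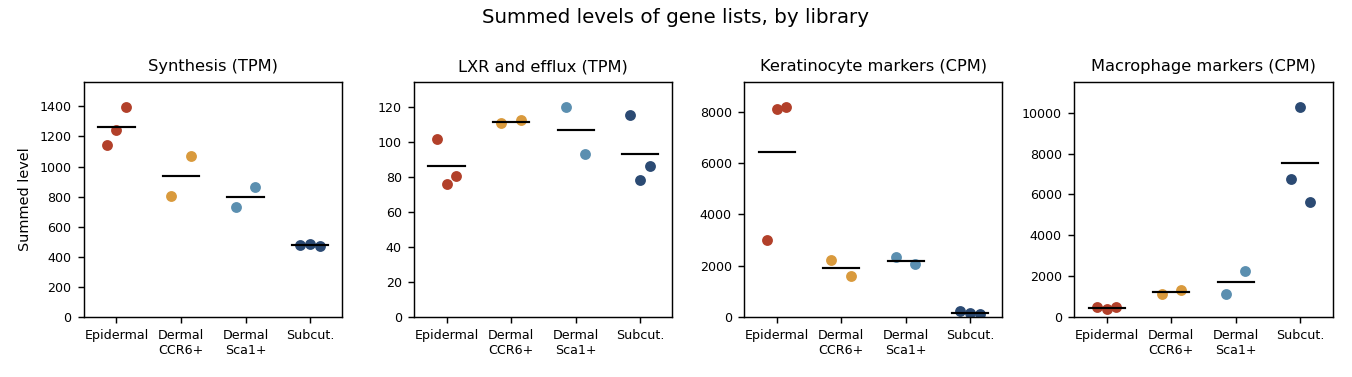
Summed level by library of the 19 synthesis genes and of the 5 LXR and export genes (both TPM), beside the summed levels of 10 keratinocyte and 10 macrophage and dendritic cell markers (both CPM), with a line at each group mean. The synthesis sum in TPM is highest in epidermal libraries, an order that does not hold for the same sum in CPM, where 2 dermal libraries (1687 and 1421) exceed epidermal replicate 1 (1412). The macrophage markers are highest in subcutaneous libraries at 5610 to 10260 CPM.

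Pathways next to cholesterol synthesis were examined from lists made by function, between epidermal and subcutaneous ILCs. Over all tested genes 6.87% were called higher and 13.3% lower in that comparison. Fatty acid synthesis and desaturation genes, which SREBP1 governs, had 1 of 12 called higher and 2 lower by edgeR, shares near those over all genes. Their median log2 fold change was 0.21 against -0.02 over all tested genes. At an unadjusted p under 0.05 edgeR gave 4 higher and 2 lower. DESeq2 called 4 higher and 2 lower, and limma on log2(TPM + 1) called 3 higher and 2 lower. Scd2, a desaturase, was higher (1.35 ± 0.23, edgeR adjusted p = 0.0021). Elovl5, an elongase (-1.95 ± 0.19, edgeR adjusted p = 7.13e-05), and Fads2, a desaturase (-2.07 ± 0.57, edgeR adjusted p = 0.0272), were lower. Of the 13 protein prenylation and isoprenoid genes, which use the products of Fdps and Ggps1, edgeR called 0 (median -0.04; 1 higher and 2 lower at an unadjusted p under 0.05; DESeq2 and limma each called 1 higher). Of the 8 genes that cut or degrade SREBP proteins or their partners, edgeR also called 0 (median 0.08; 0 at an unadjusted p under 0.05; 0 by DESeq2 or limma).

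Storage and uptake genes outside the set had calls on the lower side. Of 13 tested genes for sterol esters, transport and oxysterols, 0 were higher and 4 lower, where 6.87% and 13.3% of all tested genes were, with a median of -0.86. They included Soat1, which esterifies cholesterol (-1.29 ± 0.19, edgeR adjusted p = 0.000893), and Lipa, the lysosomal esterase (-1.40 ± 0.34, edgeR adjusted p = 0.015). Among 8 other tested LXR targets and partners the median was -0.06 and 2 were higher: Rxra, the partner receptor of the LXRs (1.86 ± 0.25, edgeR adjusted p = 0.000457), and Arl4c (1.08 ± 0.32, edgeR adjusted p = 0.0365). Pltp, which transfers phospholipid, was the 1 called lower (-8.62 ± 0.96, edgeR adjusted p = 0.000148). Of 8 lipoprotein uptake genes 0 were higher and 5 lower, including Scarb1, a lipoprotein receptor (-2.43 ± 0.26, edgeR adjusted p = 0.000134), and Lrp1, another (-4.54 ± 0.87, edgeR adjusted p = 0.0043). Cd36 and Msr1, scavenger receptors, had no count in any epidermal library, so no fold is given. Several of these genes are abundant in macrophages, whose markers were highest in subcutaneous libraries, and fibroblast markers were also far higher there than in the epidermis; their part was not tested.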

How the data were processed

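RNA-seq libraries from 10 sorts of skin ILCs were analysed from the deposited gene tables, 1 per library, which hold expected counts and TPM per gene per the file headers. Trimmomatic, STAR and RSEM with build mm10 were used by the authors, per the submitters' processing notes. Tool versions, their order, the strand setting and the annotation: not given in the sources used here. Per the labels' protocols, libraries were built from column-purified RNA with SMART-Seq low-input and Nextera XT reagents. This chemistry keeps no strand information.

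The deposited expected counts were rounded and fitted in edgeR 4.0.16 (R 4.3.3): TMM scaling, genes kept by filterByExpr with a minimum count of 10, 4 groups in 1 quasi-likelihood model, two-sided tests and Benjamini-Hochberg adjustment over 16208 genes, called at an adjusted p under 0.05. CPM use TMM library sizes, and fold changes are log2. The ± after a log2 fold change is an SE that edgeR does not report. It was computed as the absolute log2 fold change divided by the square root of the test's F statistic. The test was run on simulated data for epidermal against subcutaneous ILCs only, with large changes set in well-expressed genes. Smaller changes and comparisons with the dermal sorts were not covered. Alternatives were DESeq2 1.42.0, limma 3.58.1 on log2(TPM + 1) and log2(TPM + 0.1) of the deposited TPM, other scaling and filters, fits of the compared groups alone, a replicate block and each library left out.

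Gene IDs were given symbols from GENCODE vM21 (47224 of 47643 matched, 39106 with the same version). All 31 genes are named, with values in every library for those called in any comparison and for the SREBP2, INSIG and LXR genes; of the neighbouring lists at most the 4 genes with the smallest adjusted p were eligible. The genes and lists were chosen with earlier results of these data known. Replicate numbers were not taken as pairs, since the labels do not say that they mark a shared mouse or day.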

Additional observations from a re-analysis of the deposited data

How the results depend on the processing

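Of the 36 pairs of a gene and a comparison called by edgeR, 0 reversed under any alternative, 20 were lost when some single library was left out, and 12 were lost under none, among them Fdps, Mvd, Msmo1, Sqle, Hmgcs1, Insig1 and Abca1 between epidermal and subcutaneous ILCs. In the counts below the edgeR value comes in brackets, and the cause of a change was not tested. Without both epidermal libraries with the highest keratinocyte level, added after the data were seen, epidermal against subcutaneous ILCs gave 6 genes higher (12) and 1 lower (3), with 1443 of all genes called (3268). The same setting gave 0 higher (1) and 0 lower (2) against dermal CCR6+ ILCs with 451 of all genes (1001), and 0 higher (2) against dermal Sca1+ ILCs with 910 of all genes (1848). Fewer samples enter that fit, and with 1 epidermal library left its calls rest on the spread of the other groups.

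DESeq2 gave 5 genes lower for epidermal against subcutaneous ILCs (3), 3 higher (1) and 4 lower (2) between epidermal and dermal CCR6+ ILCs, 5 higher between epidermal and dermal Sca1+ ILCs (2), and 1 higher between the dermal sorts (0). Over all genes it called 2001 between epidermal and dermal CCR6+ (1001), 561 between the dermal sorts (104), 1193 between dermal Sca1+ and subcutaneous (357), 2967 between epidermal and dermal Sca1+ (1848) and 2345 between dermal CCR6+ and subcutaneous ILCs (1209). Limma on log2(TPM + 1) and on log2(TPM + 0.1) each gave 2 genes higher and 0 lower between epidermal and dermal CCR6+ ILCs and 6 higher between epidermal and dermal Sca1+ ILCs. Over all genes limma called 891 and 743 between dermal Sca1+ and subcutaneous ILCs, and 1978 and 1899 between dermal CCR6+ and subcutaneous ILCs. With no filter beyond 1 count, 2 genes were higher between epidermal and dermal CCR6+ ILCs and 1 between the dermal sorts, and 5 CPM in 2 libraries as the filter also gave 1 there. Without the filter the calls over all genes were 2028 for epidermal against dermal CCR6+, 647 for the dermal sorts, 1328 for dermal Sca1+ against subcutaneous, 2918 for epidermal against dermal Sca1+ and 2292 for dermal CCR6+ against subcutaneous ILCs. With only the 2 compared groups in the fit, epidermal against dermal CCR6+ ILCs gave 0 lower and 618 of all genes, the dermal sorts 47 and dermal Sca1+ against subcutaneous ILCs 560.

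Same-numbered libraries did not deviate together from their group means (correlations from -0.038 to 0.114), so the numbers are not treated as pairs. With the replicate number as a block, 0 genes were lower between epidermal and dermal CCR6+ ILCs, 3 higher between dermal Sca1+ and subcutaneous ILCs, with 203 of all genes, 1 higher between epidermal and dermal Sca1+ ILCs, and 64 of all genes were called between the dermal sorts. The block ended the calls of Abca1 and Mylip between epidermal and dermal CCR6+ ILCs, Sqle between epidermal and dermal Sca1+ ILCs, and Mvd and Acat2 between dermal Sca1+ and subcutaneous ILCs. With each library left out in turn, and a lone library assumed to vary like the other groups, the ranges for epidermal against dermal CCR6+ ILCs were 0 to 2 higher and 0 to 2 lower. Those for dermal Sca1+ against subcutaneous ILCs were 0 to 5 higher and 157 to 420 of all genes, and those for epidermal against dermal Sca1+ ILCs 0 to 4 higher, 2 to 4 lower and 1192 to 1865 of all genes. Dermal CCR6+ against subcutaneous ILCs ranged over 3 to 7 higher, 0 to 1 lower and 435 to 1372 of all genes, the dermal sorts over 35 to 155 of all genes, and epidermal against subcutaneous ILCs over 10 to 12 higher and 2 to 4 lower. With a dermal sort of 2 libraries, a difference that was not called is not shown to be absent.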
